A study of Homo sapiens with 12 samples.

Results

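The aminoacyl-tRNA synthetases are the enzymes that load each transfer RNA with its amino acid. Members were the rows of the count table whose gene name holds "tRNA synthetase" and whose symbol ends in ARS, ARS1 or ARS2, or is EPRS1. The rule found 35 of 16020 genes: 18 cytosolic enzymes, with symbols ending in 1, and 17 mitochondrial enzymes, with symbols ending in 2. GARS1 and KARS1 also make the mitochondrial enzyme for their amino acid and are counted as cytosolic throughout. All 35 passed the filter on low counts, and the lowest count of any member in any library was 94 (FARS2).

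Expression was read by RNA sequencing in AU565, a human cell line established from breast carcinoma that carries extra copies of ERBB2, the gene of the HER2 receptor. Cells were grown in 4 formats with 3 libraries per format: a monolayer, small spheroids, large spheroids and a capsule. The labels give wild-type cells and, for all 12 libraries, a 5% matrigel overlay after trastuzumab, an antibody against HER2, with 96 h before RNA extraction. Monolayer therefore carries the antibody label too, and no comparison here measures the drug. The capsule is not described further in the labels, and they do not say whether replicates were separate cultures, so p-values rest on the variation among libraries alone, part or all of which may be technical. The comparisons ask how expression differs between the culture formats.

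In the cytosol, most amino acids have a synthetase of their own, and the charged tRNAs feed the ribosome through elongation factor eEF1A. Several cytosolic enzymes are held together, with 3 scaffold proteins, in the multi-synthetase complex, and the rest work free or in pairs with other factors. Mitochondria translate their own small genome with a separate set of enzymes made from nuclear genes and imported. When amino acids run short, the kinase GCN2 (EIF2AK4) phosphorylates eIF2, and the factor ATF4 then switches on amino acid synthesis genes and many cytosolic synthetases. The DNA element that ATF4 binds with C/EBP partners is known as CARE.

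Because most called cytosolic members were higher than monolayer in large spheroids and lower in capsules, their start regions were read for the core of that element, TGATGNAA on either strand (TTNCATCA). The windows run from 250 bases before to 50 after a gene's start and come from RefSeq on GRCh38.p14. They were found for 14 of 18 cytosolic and 14 of 17 mitochondrial members, taking the first listed start. A match stood in 6 cytosolic windows (42.9%) and in 1 mitochondrial window (7.14%). A match stood in 3.67% of all 27305 RefSeq windows and in 1.73% of the 12175 windows that belong to counted genes. Of the 21 windows of the amino acid response list described at the end, 5 held it (23.8%). The matching stretches are printed as 30 bases, 5′ to 3′ on the gene's strand, with the match in capitals. A match is a string of letters and not a measured binding site.
AARS1: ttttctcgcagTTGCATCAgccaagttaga
CARS1: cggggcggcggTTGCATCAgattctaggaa
IARS1: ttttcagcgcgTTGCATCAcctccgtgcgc
MARS1: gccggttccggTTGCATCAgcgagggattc
NARS1: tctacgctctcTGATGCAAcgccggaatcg
TARS1: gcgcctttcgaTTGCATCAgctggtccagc
YARS2: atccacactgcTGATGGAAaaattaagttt
The 6 cytosolic genes shared the same letters, TTGCATCA or its reverse complement TGATGCAA, and YARS2 differed at the open base with TGATGGAA. The AARS1 match began 187 bases before the start (chr16:70289675-70289704, minus strand) and that of IARS1 13 bases before it (chr9:92293692-92293721, minus strand). The matches of CARS1 and MARS1 lay across the start, beginning 2 and 4 bases before it (chr11:3057407-3057436, minus strand, and chr12:57488053-57488082, plus strand). Those of TARS1 and NARS1 began 2 and 14 bases past the first base of the listed start (chr5:33440956-33440985, plus strand, and chr18:57621804-57621833, minus strand). The start listed first for TARS1 lies inside the annotated gene, downstream of its outermost start, and the other starts are the outermost ones. The YARS2 match began 197 bases before the start (chr12:32756076-32756105, minus strand). At another listed start GARS1 held TTTCATCA (chr7:30594834-30594863, plus strand). This brought the cytosolic count to 7 of 14 (50%) when any listed start was allowed, against 2.82% of the 12175 counted genes with a window.

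Library totals ran from 13971346 to 24729250 counts, and synthetase genes took from 0.342% to 0.537% of them. The 6 markers of a HER2-positive epithelial line (ERBB2, GRB7, EPCAM, KRT8, KRT18 and KRT19) were read in every format and summed to 12032 to 20740 CPM, the count scaled to a common library total. Capsule 1 differed most from its own format: chi-square values averaged over genes came to 39.1 and 34.6 in its comparisons with capsule 2 and 3, and to 2.80 to 12.6 for the remaining replicate pairs. Cardiac muscle markers (5 of 6 in the table) summed to 188 and 188 CPM in monolayer 1 and 2 and to 62.7 and 49.4 in large spheroid 1 and 2. The other 8 libraries held 1.18 to 5.65. Melanocyte markers (5 of 6 in the table) summed to 52.9 to 114 CPM in monolayer and 22.5 to 28.6 in large spheroids, and to 5.98 to 7.75 in the other formats, where TYR was at 0 in small spheroids. Fibroblast markers (4 of 6) summed to 22.9 to 48.6 CPM in monolayer and to 20.2 to 37.5 elsewhere, with POSTN at 0 in small spheroids. Within that sum, mean POSTN, scaled as for the tests, was 21.9 CPM in monolayer, 16.6 in large spheroids and 0.021 in capsules, while mean COL1A1 was 8.36, 5.73 and 17.9, and 25.3 in small spheroids. The part of these cells' RNA in the synthetase results was not tested.

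Levels below are CPM scaled between libraries by the trimmed mean of M values (TMM), and differences are log2 fold changes with their standard error (SE). A gene is called where edgeR's quasi-likelihood test gives an adjusted p below 0.05 over all 15175 genes tested. Among the 4 formats, 34 of the 35 synthetases varied (90% of all genes did). MARS2, the mitochondrial methionine enzyme, did not pass, at 26.4 to 30.4 CPM in the 4 formats (adjusted p = 0.290).

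The cytosolic sum was highest in large spheroids and low in small spheroids and capsules, while the mitochondrial sum was highest in monolayer. Summed over the 18 enzymes, cytosolic levels were 3772 ± 137 CPM in monolayer, 2805 ± 44.7 in small spheroids, 4204 ± 84.6 in large spheroids and 2819.9 ± 250.4 in capsules (SD, n = 3). The 17 mitochondrial enzymes summed to 1161 ± 1.93, 890.4 ± 12.2, 1024 ± 18.3 and 1049.5 ± 19.7 CPM in the same order. IARS2 alone made up 552.7, 325.4, 425.1 and 382.1 CPM of these sums. The order of the mitochondrial sums and the ratio below therefore rest in large part on 1 gene. GARS1 and KARS1, which also make mitochondrial enzymes, stand wholly in the cytosolic sum, with 290.7 and 121.7 CPM in monolayer. The ratio of the sums was 3.25 ± 0.115 in monolayer and 3.15 ± 0.0279 in small spheroids, highest in large spheroids at 4.11 ± 0.0338 and lowest in capsules at 2.69 ± 0.200. Of the 18 cytosolic members 10 had their highest mean in large spheroids, and 8 had their lowest in capsules and 7 in small spheroids. Of the 17 mitochondrial members 8 were highest in capsules, and 6 were lowest in small spheroids and 6 in large spheroids. The same counts over all genes are not given here, so these have no baseline beside them. In these bulk samples fewer cells of a kind and less RNA per cell cannot be told apart.

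**Figure D1:**
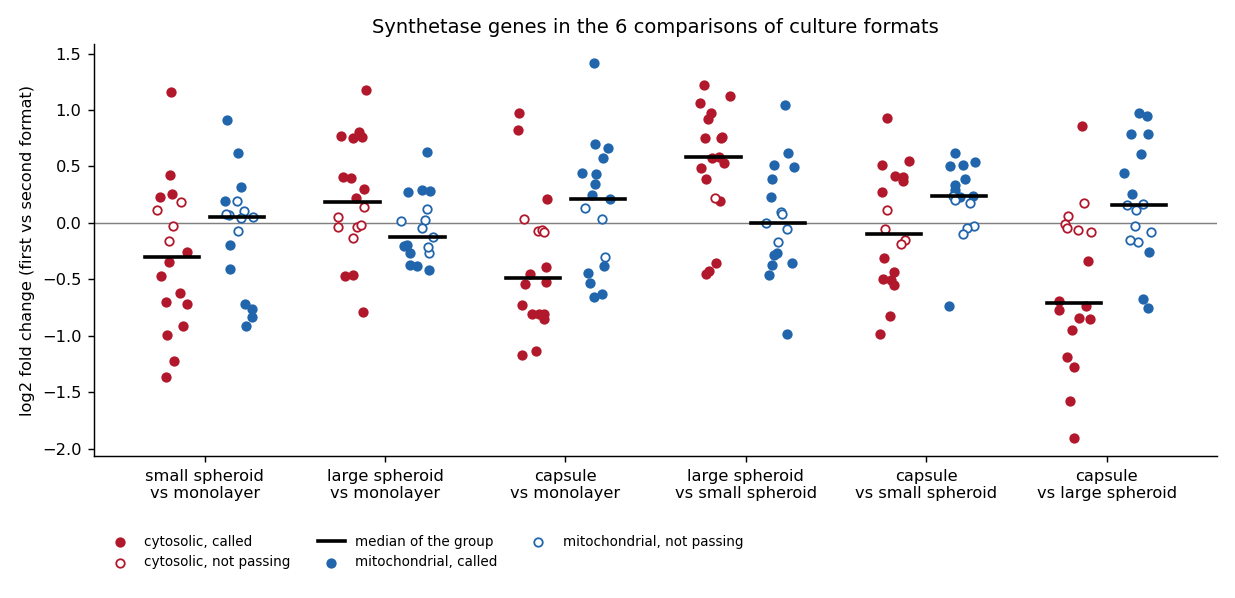
Log2 fold change of each of the 18 cytosolic (red) and 17 mitochondrial (blue) synthetase genes in the 6 comparisons of formats, filled where called at adjusted p below 0.05, with a black bar at the median of each group. The cytosolic median stands at 0.18 in large spheroids and at -0.49 in capsules against monolayer, where the mitochondrial medians are -0.12 and 0.21.

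In large spheroids against monolayer, 9 of 18 cytosolic members rose, 3 fell and 6 did not pass, with a median log2 fold change of 0.18. Of the 9, 8 kept their calls without any 1 library and after the correction for GC content and transcript length that is described further on. Of all genes 57.1% were called, 28.7% higher and 28.4% lower, with a median of -0.00. Among the 17 mitochondrial members 4 rose, 6 fell and 7 did not pass (median -0.12). The highest were 1.17 for AARS1, 0.80 for VARS1, 0.77 for SARS1 and 0.76 for WARS1. The lowest were TARS1 at -0.79, LARS1 at -0.47, QARS1 at -0.46 and the mitochondrial EARS2 at -0.42. Calls of KARS1 (0.21 to 0.23, adjusted p = 0.0737 to 0.117, leaving out monolayer 1, 2 or 3 or large spheroid 2 or 3), CARS2 (-0.20 to -0.17, adjusted p = 0.0568 to 0.124, leaving out monolayer 1, 2 or 3 or large spheroid 2 or 3) and LARS2 (-0.29 to -0.21, adjusted p = 0.0699 to 0.17, leaving out monolayer 1 or 2 or large spheroid 1, 2 or 3) were among those that ended with 1 library left out. Without the 4 libraries that held cardiac reads, 1 library was left in each of these formats and fewer members were called. The share of all genes called there is not given here. A general loss of power can therefore not be told apart from a loss particular to the synthetases.

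In capsules against monolayer, 11 of 18 cytosolic members fell, 3 rose and 4 did not pass (median log2 fold change -0.49). All 11 were lower without any 1 library and after that correction. Of all genes 66% were called, 31.5% lower and 34.5% higher, with a median of 0.04. Among the mitochondrial members 9 rose, 5 fell and 3 did not pass (median 0.21). The lowest were YARS1 at -1.17, GARS1 at -1.14, TARS1 at -0.85 and IARS1 at -0.81. AARS2, VARS1, HARS1 and FARS2 were the highest, at 1.42, 0.97, 0.83 and 0.70. The calls of KARS1 (0.10 to 0.22, adjusted p = 0.0797 to 0.188, leaving out monolayer 1, 2 or 3 or capsule 1) and VARS2 (0.19, adjusted p = 0.127 to 0.13, leaving out monolayer 1 or 2 or capsule 2 or 3) ended with 1 library left out. NARS1, RARS1 and RARS2 did not pass with all libraries and were called lower without capsule 1 (-0.23, adjusted p = 0.00464, -0.28, adjusted p = 0.000313 and -0.49, adjusted p = 0.00161). Without the 4 libraries with cardiac reads fewer members were called higher, with the same limit as for large spheroids.

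In small spheroids against monolayer, 10 of 18 cytosolic members fell, 4 rose and 4 did not pass (median log2 fold change -0.30), and 6 of 17 mitochondrial members fell, 4 rose and 7 did not pass (median 0.06). Of all genes 72.3% were called, 35.3% lower and 37% higher, with a median of 0.01. TARS1 (-1.36), LARS1 (-1.23), RARS1 (-0.99) and IARS1 (-0.92) were the lowest, and VARS1 (1.16), AARS2 (0.91), SARS2 (0.62) and HARS1 (0.42) the highest. This comparison followed GC content most closely among the synthetases. TARS1, LARS1, RARS1 and IARS1 have 41.4% to 43.6% GC, and their values here are not corrected for it. All 4 kept their lower calls after the correction. After the correction 3 members were called higher in place of 8, where 29.4% of all genes were. The cytosolic and mitochondrial medians then came to -0.29 and -0.28. Scaled by library totals alone, the median of all genes was -0.15, and 4 members were called higher. Calls that ended with 1 library left out were those of AARS1 (0.17 to 0.23, adjusted p = 0.0587 to 0.119, leaving out monolayer 1 or small spheroid 1 or 3), WARS1 (0.13 to 0.25, adjusted p = 0.0596 to 0.255, leaving out monolayer 1 or 3 or small spheroid 1 or 3), CARS1 (-0.28 to -0.24, adjusted p = 0.0545 to 0.0907, leaving out monolayer 1, 2 or 3 or small spheroid 1, 2 or 3), TARS2 (0.15 to 0.20, adjusted p = 0.0792 to 0.17, leaving out monolayer 1 or 2 or small spheroid 1 or 3), VARS2 (0.24, adjusted p = 0.0575, leaving out small spheroid 3) and NARS2 (-0.22 to -0.16, adjusted p = 0.0608 to 0.156, leaving out monolayer 1, 2 or 3 or small spheroid 1 or 2). SARS1 was called higher without monolayer 3 (0.24, adjusted p = 0.0335). Members called higher numbered 4 without small spheroid 3. Without the 4 libraries with cardiac reads they were also fewer than with all libraries, with the same limit as for large spheroids.

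Large spheroids stood above small spheroids for most cytosolic members: 14 of 18 were higher, 3 lower and 1 did not pass (median log2 fold change 0.58). Of all genes 66.3% were called, 32.9% higher and 33.4% lower, with a median of -0.00. Mitochondrial members divided into 6 higher, 6 lower and 5 not passing (median -0.00). EPRS1 (1.12) and IARS1 (1.06) were among the highest, and SARS2 (-0.99), FARS2 (-0.46) and HARS1 (-0.46) the lowest. After the GC and length correction VARS1 turned from -0.36 to 0.38 and AARS2 from -0.29 to 0.26, both still called. Mitochondrial members then divided into 5 higher and 2 lower (median 0.13), and cytosolic members into 15 higher and 1 lower (median 0.49). Of all genes 26.7% were then called higher and 25.5% lower. Calls of MARS1 (0.16 to 0.20, adjusted p = 0.0677 to 0.126, leaving out small spheroid 1 or 2 or large spheroid 1 or 2), AARS2 (-0.32 to -0.20, adjusted p = 0.0573 to 0.185, leaving out small spheroid 1, 2 or 3 or large spheroid 1 or 3) and FARS2 (-0.42 to -0.33, adjusted p = 0.0893 to 0.158, leaving out small spheroid 2 or 3 or large spheroid 1) ended with 1 library left out.

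Capsules stood below large spheroids for 11 of 18 cytosolic members and above for 1, HARS1, while 6 did not pass (median log2 fold change -0.71). All 11 and HARS1 kept their calls after the correction and without any 1 library. Of all genes 62.7% were called, 30.6% lower and 32.1% higher, with a median of 0.02. Mitochondrial members were higher in 7 cases, lower in 3 and not passing in 7 (median 0.16). AARS1 (-1.90) and YARS1 (-1.58) were the lowest, and FARS2 (0.97), SARS2 (0.95) and HARS1 (0.86) the highest. The calls of NARS2 (-0.23 to -0.18, adjusted p = 0.0506 to 0.0948, leaving out large spheroid 1 or capsule 2) and VARS2 (0.21 to 0.23, adjusted p = 0.0715 to 0.101, leaving out large spheroid 2 or capsule 2 or 3) ended with 1 library left out. Without capsule 1 the lower calls gained RARS1 (-0.26, adjusted p = 0.000692), TARS1 (-0.23, adjusted p = 0.00532) and IARS2 (-0.20, adjusted p = 0.0055), and the higher calls gained VARS1 (0.32, adjusted p = 0.00079) and TARS2 (0.23, adjusted p = 0.00286). IARS2 was also called without large spheroid 1 (-0.20, adjusted p = 0.0448).

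Capsules against small spheroids gave 7 cytosolic members higher, 7 lower and 4 not passing (median log2 fold change -0.10), and 10 mitochondrial members higher, 1 lower and 6 not passing (median 0.24). Of all genes 52% were called, 27% higher and 25% lower, with a median of 0.02. RARS1 (0.93), YARS2 (0.62) and NARS1 (0.55) were the highest, and AARS1 (-0.98), YARS1 (-0.82) and the mitochondrial PARS2 (-0.73) the lowest. After the correction 24.4% of all genes were called higher and 22.3% lower. Among mitochondrial members 9 were then higher and 1 lower (median 0.29). Only 5 of the 10 higher calls were kept, and 3 of the 10 both then and without any 1 library. The kept 3 were AARS2, HARS2 and YARS2. Calls of EPRS1 (0.11 to 0.28, adjusted p = 0.0571 to 0.151, leaving out small spheroid 1, 2 or 3 or capsule 1), WARS1 (-0.29 to -0.27, adjusted p = 0.0513 to 0.0662, leaving out small spheroid 1 or 3), FARS2 (0.35 to 0.41, adjusted p = 0.0679 to 0.125, leaving out small spheroid 1 or capsule 1), IARS2 (0.20, adjusted p = 0.053, leaving out small spheroid 1), NARS2 (0.17 to 0.26, adjusted p = 0.0524 to 0.107, leaving out small spheroid 1, 2 or 3 or capsule 1 or 3), TARS2 (0.20 to 0.21, adjusted p = 0.0674 to 0.0764, leaving out small spheroid 2 or capsule 2 or 3) and WARS2 (0.19 to 0.31, adjusted p = 0.0674 to 0.165, leaving out small spheroid 1, 2 or 3 or capsule 1) ended with 1 library left out. Without capsule 1, calls were gained by, among others, CARS2 (0.20, adjusted p = 0.0179), LARS2 (0.35, adjusted p = 0.00702) and SARS1 (-0.24, adjusted p = 0.0073). MARS2 was called without capsule 3 (0.28, adjusted p = 0.0387) and VARS1 without capsule 2 (-0.30, adjusted p = 0.0286).

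The 8 cytosolic enzymes of the multi-synthetase complex include EPRS1, IARS1, LARS1, QARS1, MARS1, KARS1 and RARS1. None rose and 5 fell in small spheroids against monolayer, 4 rose and 2 fell in large spheroids, and 1 rose and 6 fell in capsules. The shares of all genes called higher and lower were 37% and 35.3%, 28.7% and 28.4%, and 34.5% and 31.5% in the same order. Gene positions here and in what follows are from RefSeq on GRCh38.p14, and the counts were made on hg38, the same assembly. EPRS1 (chr1:219968600-220046505), the fused enzyme for glutamate and proline, stood at 526, 535 and 567 CPM in monolayer, 321, 337 and 328 in small spheroids, 683, 726 and 741 in large spheroids and 480.4, 356 and 352 in capsules. Its large spheroid libraries were all above, and its small spheroid and capsule libraries all below, those of monolayer.
IARS1, for isoleucine (chr9:92210207-92293697), stood at 213, 216 and 204 CPM in monolayer, 116, 105 and 113 in small spheroids, 239, 233 and 225 in large spheroids and 129, 116 and 117 in capsules. Its levels in small spheroids and capsules were all below those in monolayer and large spheroids, and the difference between monolayer and large spheroids did not pass (0.14 ± 0.07, adjusted p = 0.107).
LARS1, for leucine (chr5:146113034-146182650), stood at 439, 453 and 452 CPM in monolayer, 185, 198 and 192 in small spheroids, 313, 322 and 336 in large spheroids and 293, 238 and 238 in capsules. It fell in all 3 formats, by 2.34-fold in small spheroids before the GC and length correction.
RARS1, for arginine (chr5:168486471-168519301), was lowest in small spheroids, at 141, 148 and 146 CPM in monolayer, 75.1, 73.3 and 70.2 in small spheroids, 136, 147 and 146 in large spheroids and 178, 119.6 and 119 in capsules. Capsule 2 and 3 also lay below all monolayer and large spheroid libraries, and capsule 1 lay above them. QARS1, for glutamine (chr3:49095932-49104757), stood at 329, 340.1 and 346 CPM in monolayer, 312, 345 and 336 in small spheroids, 255, 241 and 241 in large spheroids and 221, 242 and 236 in capsules, and its large spheroid and capsule libraries were all below the other formats. MARS1 and KARS1, for methionine and lysine, had smaller differences, with log2 fold changes against monolayer from -0.39 to 0.30 and from -0.16 to 0.22. MARS1 overlaps DDIT3, a stress gene on chromosome 12 with values given further on, so reads of the 2 genes may be shared. The KARS1 gene also makes the mitochondrial lysine enzyme.

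The other 10 cytosolic enzymes included the genes with the highest and lowest cytosolic fold changes against monolayer. AARS1, the alanine enzyme (chr16:70252298-70289506), stood at 161, 188 and 200.03 CPM in monolayer, 226, 202 and 227 in small spheroids, 411, 411 and 417 in large spheroids and 99.1, 115 and 118 in capsules. Its 3 large spheroid libraries were the highest and its 3 capsule libraries the lowest, with no overlap with any other format. The fold was 2.26 up in large spheroids against monolayer (log2 fold change 1.17 ± 0.09, adjusted p = 1.02e-08) and 1.66 down in capsules (log2 fold change -0.73 ± 0.09, adjusted p = 2.21e-06).
YARS1, for tyrosine (chr1:32775239-32817358), stood at 137, 151 and 151 CPM in monolayer, 119, 103 and 122.9 in small spheroids, 203, 189.5 and 189.7 in large spheroids and 56.4, 73.4 and 65.5 in capsules. The order was the same as for AARS1 at its ends, large spheroid highest and capsule lowest, and the fall in capsules was 2.25-fold (log2 fold change -1.17 ± 0.10, adjusted p = 1.9e-08). S100PBP overlaps YARS1 in the table.
GARS1, for glycine (chr7:30594735-30634033), whose gene makes both the cytosolic and the mitochondrial enzyme, stood at 277, 303 and 292 CPM in monolayer, 180.0, 169.6 and 187 in small spheroids, 292, 303 and 309 in large spheroids and 137, 127 and 133 in capsules. It fell 2.20-fold in capsules and 1.62-fold in small spheroids, while large spheroids overlapped monolayer (0.05 ± 0.07, adjusted p = 0.561).
SARS1, for serine (chr1:109213893-109238182), rose in large spheroids, with 181, 205 and 216 CPM in monolayer, 216, 234 and 235 in small spheroids, 343, 338 and 347 in large spheroids and 231, 197 and 190.5 in capsules. WARS1, for tryptophan (chr14:100333790-100376327), a gene also induced by interferon, showed 51.8, 66.5 and 61.7 CPM in monolayer, 72.9, 63.3 and 75.1 in small spheroids, 101, 100.4 and 104 in large spheroids and 52.3, 57.3 and 60.9 in capsules. In large spheroids WARS1 was 1.70-fold above monolayer, and in capsules it did not pass (-0.08 ± 0.10, adjusted p = 0.481).
CARS1, for cysteine (chr11:3000929-3057423), was the least abundant cytosolic enzyme per kb of transcript and stood at 18.8, 19.6 and 19 CPM in monolayer, 16, 16.2 and 15.8 in small spheroids, 18.1, 19.5 and 18.3 in large spheroids and 11.2, 12.2 and 9.29 in capsules. All 3 capsule libraries lay below those of every other format.
TARS1, for threonine (chr5:33440696-33468091), stood at 301, 312 and 305 CPM in monolayer, 115, 122 and 120.5 in small spheroids, 163, 177 and 193 in large spheroids and 208, 144 and 157 in capsules. Monolayer was the highest format in every library. Levels in small spheroids were 2.57-fold lower before the GC and length correction (log2 fold change -1.36 ± 0.11, adjusted p = 8.36e-09). NARS1, for asparagine (chr18:57600656-57621836), was low in small spheroids, with 312, 325 and 339 CPM in monolayer, 209.8, 216 and 206 in small spheroids, 277, 285 and 324 in large spheroids and 373, 275 and 279 in capsules.
VARS1, for valine (chr6:31777518-31795752), which binds the eEF1 factor, was low in monolayer, with 27.9, 26.1 and 29.7 CPM in monolayer, 61, 62.5 and 63.1 in small spheroids, 51.2, 46.4 and 48.1 in large spheroids and 43.9, 63.2 and 57.4 in capsules. It rose 2.23-fold in small spheroids, 1.74-fold in large spheroids and 1.97-fold in capsules. VARS1 has the highest GC content of all members, 62.6%, and after the correction these log2 fold changes came from 1.16, 0.80 and 0.97 to 0.24, 0.62 and 0.50, all still called.

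**Figure D2:**
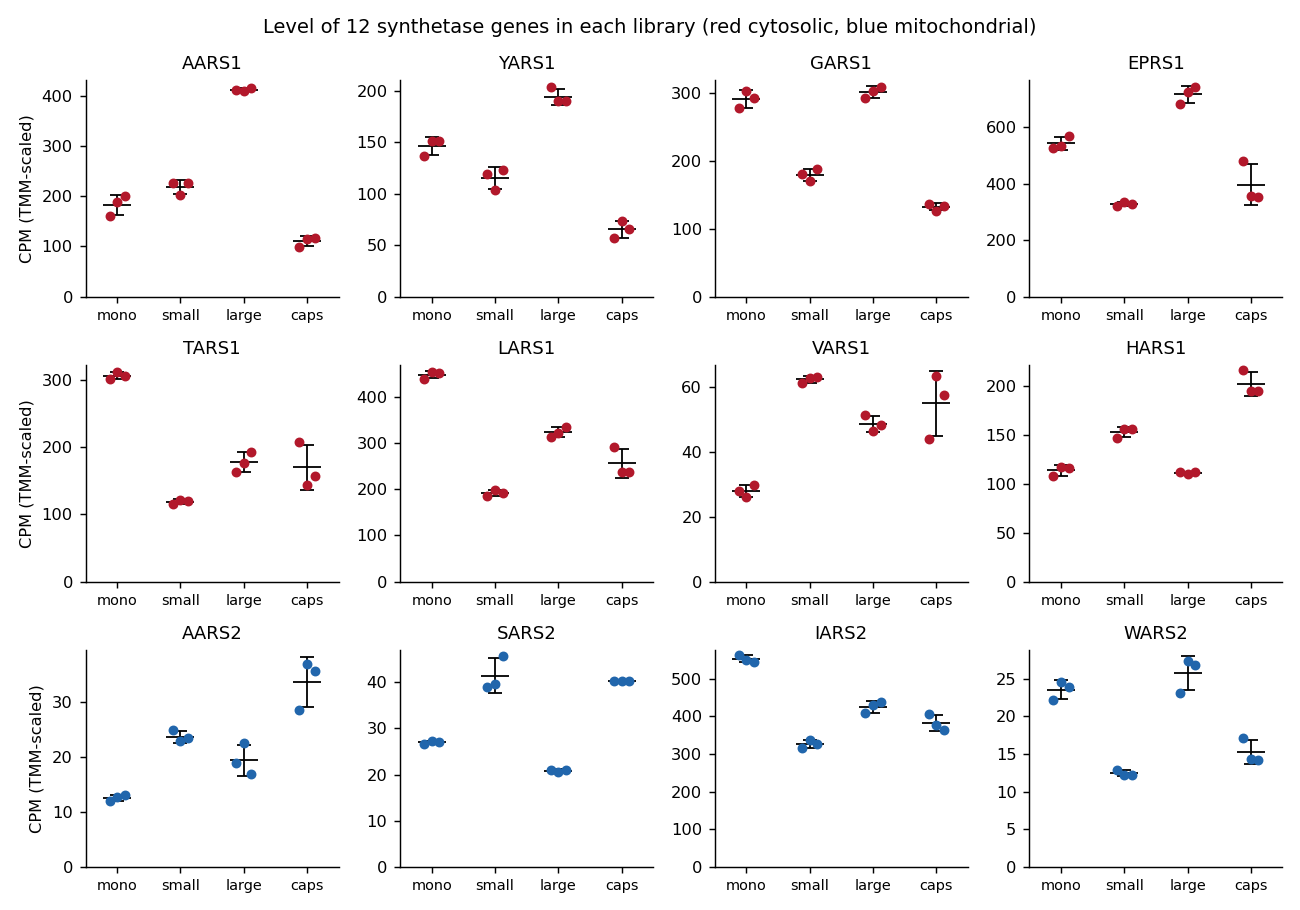
TMM-scaled CPM of 12 synthetase genes in each library of monolayer (mono), small spheroid (small), large spheroid (large) and capsule (caps), with mean and SD over 3 libraries and axes from 0. AARS1 is highest in the 3 large spheroid libraries and lowest in the 3 capsule libraries, and AARS2, its mitochondrial partner, is highest in capsules.

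HARS1 and HARS2, the cytosolic and mitochondrial histidine enzymes, lie head to head on chromosome 5, with 84 bases between their RefSeq starts (chr5:140691371-140691454, GRCh38.p14, HARS2 strand). The stretch, shown because it separates the starts of both enzymes, has 59.5% GC and no CARE core:
HARS1-HARS2: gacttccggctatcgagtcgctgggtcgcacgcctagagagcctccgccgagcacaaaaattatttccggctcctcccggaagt
HARS1 stood at 108, 118 and 117 CPM in monolayer, 147, 156 and 156 in small spheroids, 112, 110.3 and 112 in large spheroids and 216, 195 and 195 in capsules. HARS2 stood at 61.9, 59.9 and 62.3 CPM in monolayer, 64.1, 64.4 and 62.9 in small spheroids, 73.1, 73.9 and 77.4 in large spheroids and 90.1, 80.8 and 79.2 in capsules. Both rose in capsules against monolayer, by 0.83 ± 0.07 and 0.44 ± 0.07 on the log2 scale. In large spheroids HARS2 rose (0.29 ± 0.07) and HARS1 did not pass (-0.03 ± 0.07, adjusted p = 0.723), and in small spheroids HARS1 rose (0.42 ± 0.07) and HARS2 did not pass (0.06 ± 0.07, adjusted p = 0.51). HARS1 was the only cytosolic member called higher in capsules than in large spheroids, where 32.1% of all genes were. After the correction 2 cytosolic members and 32.2% of all genes were.

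Among mitochondrial enzymes, AARS2 (chr6:44298731-44313347) had the highest fold, 2.67 in capsules (log2 fold change 1.42 ± 0.12, adjusted p = 2.31e-08). It stood at 12, 12.7 and 13 CPM in monolayer, 25, 22.9 and 23.4 in small spheroids, 18.9, 22.5 and 16.9 in large spheroids and 28.6, 36.9 and 35.7 in capsules. All 9 spheroid and capsule libraries lay above the monolayer libraries, and the log2 fold changes against monolayer in small spheroids, large spheroids and capsules came to 0.24, 0.50 and 1.10 after the GC and length correction.
SARS2 (chr19:38915266-38930763) stood at 26.6, 27.2 and 27 CPM in monolayer, 38.9, 39.7 and 45.7 in small spheroids, 21, 20.5 and 21 in large spheroids and 40.3, 40.2 and 40.2 in capsules. Small spheroids and capsules were above monolayer and large spheroids below, in every library. SARS2 has 61.2% GC, and the correction took its capsule value from 0.58 to 0.00 (adjusted p = 0.968) and turned its small spheroid value from 0.62 to -0.28.
YARS2 (chr12:32746544-32755897), the mitochondrial tyrosine enzyme and the member with the TGATGGAA match, was high in capsules, with 31.3, 30.5 and 29.2 CPM in monolayer, 29.7, 34.1 and 30.1 in small spheroids, 27.6, 27.1 and 28.9 in large spheroids and 53, 46.6 and 44.7 in capsules. FARS2 (chr6:5249934-5771583), for phenylalanine, was the least abundant member per kb of transcript in all formats but capsules, where CARS1 was lower, with 5.91, 7.43 and 8.86 CPM in monolayer, 6.67, 9.01 and 9.87 in small spheroids, 5.45, 6.62 and 6.38 in large spheroids and 13.7, 12 and 10.5 in capsules. FARS2 spans LYRM4 and its own antisense gene FARS2-AS1, which share its interval in the table, and the sources used here do not say whether the counting used strand.
IARS2 (chr1:220094132-220148041), the most abundant mitochondrial member per kb of transcript, stood at 563, 549 and 545 CPM in monolayer, 315, 336 and 325 in small spheroids, 407, 429.9 and 438 in large spheroids and 405, 377 and 364 in capsules. It fell in all 3 formats against monolayer, and after the correction still did (-0.40, -0.35 and -0.36).
EARS2 (chr16:23520754-23557375) charges the mitochondrial glutamate tRNA and also the glutamine tRNA, whose amino acid is then converted by the GatCAB amidase. It fell in all 3 formats, with log2 fold changes of -0.44 to -0.41 and levels of 66.7, 64 and 66.1 CPM in monolayer, 47.7, 53.1 and 47.1 in small spheroids, 51.1, 51.7 and 44.7 in large spheroids and 47.3, 51.2 and 46.2 in capsules. WARS2 (chr1:119031216-119140672) stood at 22.2, 24.6 and 23.9 CPM in monolayer, 12.9, 12.3 and 12.2 in small spheroids, 23.1, 27.3 and 26.8 in large spheroids and 17.1, 14.4 and 14.2 in capsules. It fell in small spheroids and capsules (-0.92 and -0.63) and did not pass in large spheroids (0.13 ± 0.10, adjusted p = 0.295). WARS2-AS1 overlaps it.
PARS2 (chr1:54756898-54764523), for proline, was low in capsules alone, with 11.4, 11.8 and 12.1 CPM in monolayer, 11.2, 12.2 and 14 in small spheroids, 11.8, 10.5 and 13.6 in large spheroids and 6.19, 7.29 and 9.01 in capsules. RARS2 fell in small spheroids (-0.84), LARS2, CARS2, TARS2 and VARS2 had log2 fold changes of -0.27 to 0.44 against monolayer, and NARS2 of -0.20 to 0.29. The overlapping genes ING1 (CARS2) and GGA2 (EARS2) are in the table too.

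For 14 amino acids the table holds a separate cytosolic and mitochondrial enzyme. Compared per kb of the longest GENCODE transcript, the cytosolic gene had the higher mean level in all formats for alanine, histidine, leucine, methionine, asparagine, arginine, serine, valine and tryptophan, and the mitochondrial gene for isoleucine and cysteine. The cytosolic fold change exceeded the mitochondrial fold change for 10 of 14 pairs in large spheroids against monolayer, for 4 in capsules and for 5 in small spheroids, with median differences of 0.40, -0.40 and -0.24 on the log2 scale. For alanine the log2 ratio of AARS1 to AARS2 was 3.99 ± 0.10 in monolayer, 3.34 ± 0.07 in small spheroids, 4.56 ± 0.22 in large spheroids and 1.86 ± 0.08 in capsules (SD, n = 3). YARS1 over YARS2 went from 1.65 ± 0.13 in monolayer to 2.19 ± 0.08 in large spheroids and -0.18 ± 0.30 in capsules. The capsule SD exceeded the size of the mean, so neither gene can be called the more abundant there. Capsule 1 had the lowest YARS1 and the highest YARS2 level of its format (56.4 and 53.0 CPM). SARS1 over SARS2 stood at 3.02 ± 0.12, 4.16 ± 0.01 and 2.48 ± 0.15 in monolayer, large spheroids and capsules. Threonine went another way: TARS1 over TARS2 was 1.55 ± 0.06 in monolayer, -0.01 ± 0.09 in small spheroids, 0.49 ± 0.15 in large spheroids and 0.25 ± 0.40 in capsules. For valine, VARS1 over VARS2 was 0.74 ± 0.06 in monolayer and 1.58 ± 0.10, 1.58 ± 0.04 and 1.49 ± 0.18 in small spheroids, large spheroids and capsules. These ratios are descriptions, and no test was made of them. The ratios and pair counts are not corrected for GC content, in which partners can differ (51.5% for SARS1 and 61.2% for SARS2). With the GC and length correction, the cytosolic and mitochondrial medians in small spheroids against monolayer were -0.29 and -0.28, from -0.30 and 0.06.

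**Figure D3:**
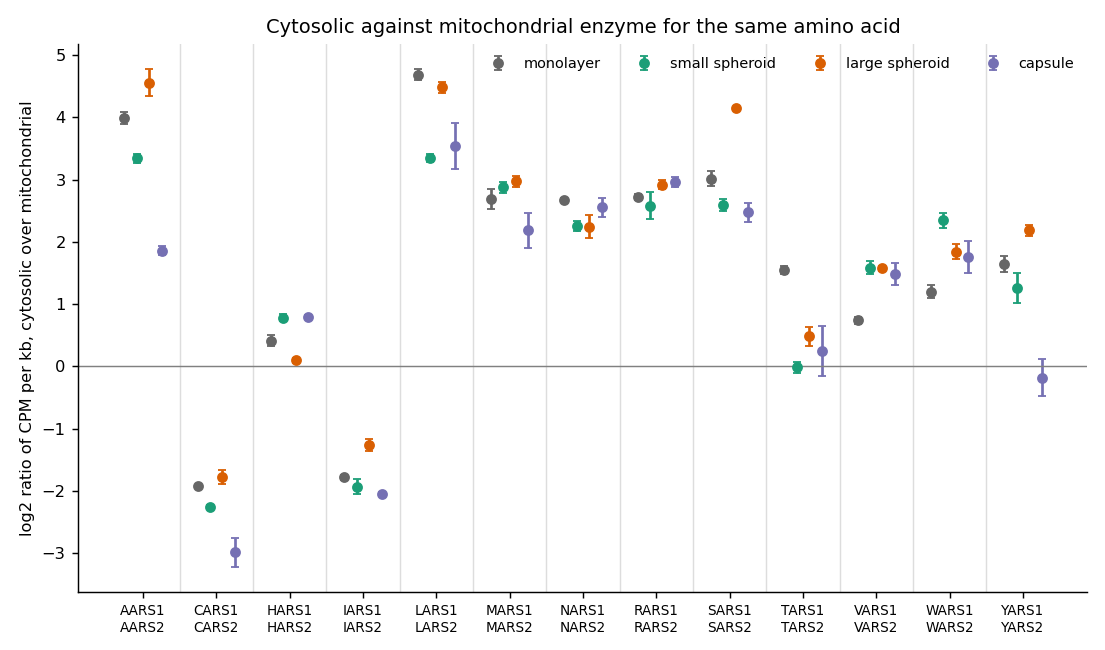
Log2 ratio of the cytosolic over the mitochondrial gene in CPM per kb of the longest transcript, for amino acids with a gene of each kind in 4 formats (mean and SD, n = 3 libraries). The alanine, serine and tyrosine pairs are highest in large spheroids and lowest in capsules, with AARS1 over AARS2 at 4.56 and 1.86. The ratios are not corrected for GC content.

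Fold changes of synthetases followed the GC content of their transcripts in some comparisons. Across the 35 members, Spearman's rho between log2 fold change and GC content was 0.803 in small spheroids against monolayer, 0.164 in large spheroids against monolayer and 0.331 in capsules against monolayer. Over 14638 genes with GC content it was 0.668, 0.189 and 0.430. For large against small spheroids rho was -0.681 over the members, for capsules against small spheroids -0.541 and for capsules against large spheroids 0.329. Genes of 1 library share its preparation and are not independent, so no p is given. Cytosolic members have a median GC content of 47.7%, mitochondrial members of 50.8% and all tested genes of 48.8%. A fit with a smooth term in GC content and length for each library brought rho over all genes to between -0.04 and 0.04. With it, cytosolic members divided into 10 higher and 3 lower in large spheroids, 3 and 12 in capsules and 2 and 11 in small spheroids against monolayer. Mitochondrial members divided into 4 and 6, 6 and 5, and 1 and 10. With the fit, 30.3% and 31.6%, 31.5% and 32.4%, and 29.4% and 33% of all genes were called higher and lower in the same order. The cytosolic median minus the mitochondrial median, 0.30 in large spheroids, came to 0.36. In capsules it came from -0.70 to -0.53, and in small spheroids from -0.36 to -0.01. For capsules against large spheroids the difference of medians was -0.87, and -0.82 with the fit. The part of GC content in the uncorrected values of single genes was not tested beyond this fit. The titles of the monolayer and large spheroid libraries carry the letters UP and those of the other formats do not, and the sources used here do not say what they mean. Large spheroids against monolayer and capsules against small spheroids stay within a kind of title, and in the other comparisons format and title cannot be told apart.

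**Figure D4:**
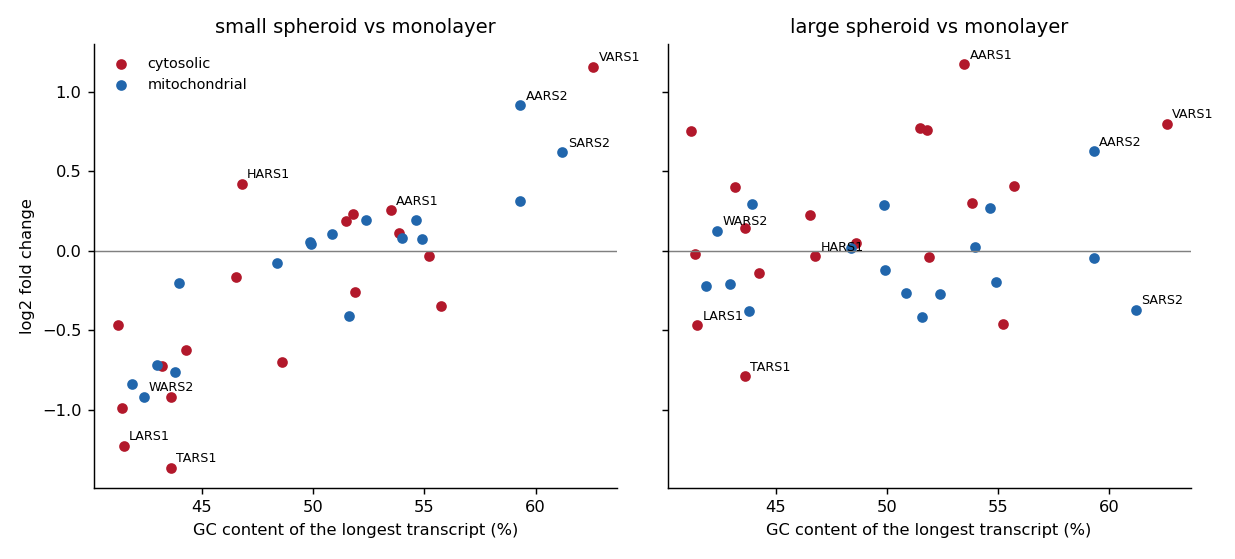
Log2 fold change of the 35 synthetase genes against the GC content of their longest transcript, in small spheroids (left) and large spheroids (right) against monolayer, cytosolic in red and mitochondrial in blue. The left panel rises with GC content (Spearman's rho 0.803) and the right panel does so weakly (0.164).

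Cytosolic enzymes often listed as ATF4 targets were AARS1, CARS1, EPRS1, GARS1, IARS1, LARS1, MARS1, NARS1, SARS1, TARS1, WARS1 and YARS1. Of these 12, 6 rose and 2 fell in large spheroids against monolayer (median log2 fold change 0.22), none rose and 9 fell in capsules (median -0.77), and 2 rose and 8 fell in small spheroids (median -0.49). Of all genes 28.7% were called higher and 28.4% lower in large spheroids, 34.5% and 31.5% in capsules, and 37% and 35.3% in small spheroids. Between capsules and large spheroids 10 were lower in capsules and none higher, where 30.6% and 32.1% of all genes were. All 6 cytosolic genes with a CARE match are among these 12, so their counts repeat part of those above. Among the 6, 5 fell and none rose in capsules against monolayer, with a median of -0.77. In large spheroids 2 of them rose and 1 fell (median 0.05). Among the 8 cytosolic genes whose window held no match, 3 fell and 2 rose in capsules (median -0.07), and 4 rose and 1 fell in large spheroids (median 0.14). GARS1, with a match at another listed start, is among these 8. Of the 4 cytosolic genes with no window in the table, 3 fell and 1 rose in capsules (median -0.66). After the GC and length correction the capsule medians were -0.61 with a match, -0.19 without and -0.45 with no window, and the differences between these sets were not tested.

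Regulators and targets of the amino acid response were read from a list of 25 genes. In large spheroids 15 rose, 3 fell and 7 did not pass against monolayer (median log2 fold change 0.43). In capsules 4 rose, 16 fell and 5 did not pass (median -0.45), and 22 of 25 were lower in capsules than in large spheroids. The shares of all genes called higher and lower were 28.7% and 28.4% in large spheroids and 34.5% and 31.5% in capsules against monolayer, and 30.6% were lower in capsules than in large spheroids. ATF3 (2.44), a stress-induced factor, and TRIB3 (1.36), a pseudokinase that ATF4 induces, were the highest in large spheroids, and EIF2AK2 and PSPH the lowest (-0.78 and -0.77). SLC7A11 (-2.46), the cystine transporter, and CHAC1 (-1.59), a glutathione-degrading enzyme, were the lowest in capsules, with ATF5 and ATF3 the highest (1.03 and 1.02). ATF4 mRNA itself rose in large spheroids (0.45) and did not pass in capsules (-0.08, adjusted p = 0.338). DDIT3, which overlaps MARS1, stood at 1.32 in large spheroids and -0.45 in capsules. In small spheroids 12 of 25 rose and 7 fell (median 0.18), where 37% of all genes rose and 35.3% fell. Values there ran from CEBPB at 1.40 and SLC7A5, a leucine transporter, at 1.09 to EIF2AK2 at -1.68 and SLC7A11 at -2.26. The values of this list are not corrected for GC content.

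Synthetase genes outside the rule were FARSA and FARSB, the subunits of the cytosolic phenylalanine enzyme, and TARS3, another threonine enzyme. FARSA rose in small spheroids and capsules (0.59 and 0.46), FARSB fell in small spheroids and rose in large spheroids (-0.44 and 0.33), and TARS3 fell in small spheroids and capsules (-0.61 and -0.45). The scaffolds of the multi-synthetase complex are AIMP1, AIMP2 and EEF1E1. EEF1E1 fell in small spheroids and capsules (-1.57 and -0.57), AIMP1 fell in small spheroids and rose in capsules (-0.41 and 0.34), and AIMP2 rose in large spheroids (0.26).

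Of 12 tested factors of tRNA charging, editing and mitochondrial amidation, 4 rose and 3 fell in large spheroids, 3 rose and 5 fell in capsules, and 2 rose and 8 fell in small spheroids against monolayer. XPOT, which exports tRNA from the nucleus, stood at 0.70 in large spheroids and -0.81 in capsules. QRSL1 and GATB, subunits of the GatCAB amidase that works after EARS2, stood at -0.57 and -0.70 in large spheroids. In capsules QRSL1 fell (-0.55) and GATB did not pass (0.15, adjusted p = 0.154), and PTRH2, a peptidyl-tRNA hydrolase, was among the highest (0.89).
All 7 cytosolic elongation factors rose in small spheroids (median 0.49), where 10 of 18 cytosolic synthetases fell and where 37% of all genes rose and 35.3% fell. Fold changes of all genes followed GC content in that comparison (Spearman's rho 0.668). With the GC and length correction 11 cytosolic synthetases were lower there and 2 higher. Corrected values are not given here for the elongation, tRNA and mitochondrial factors, and the part of GC content in them was not tested. In large spheroids 3 rose and 2 fell, and in capsules 4 rose and 2 fell. For these and for the tRNA and mitochondrial factors, the shares of all genes called higher and lower were 28.7% and 28.4% in large spheroids and 34.5% and 31.5% in capsules. EIF5A rose in all 3 (1.01, 0.27 and 1.10), and EEF2, the translocase, fell in capsules (-0.41).
Of 10 mitochondrial translation factors 2 rose and 6 fell in small spheroids, 3 rose and 4 fell in large spheroids, and 2 rose and 4 fell in capsules. TUFM, which brings charged tRNA to the mitochondrial ribosome, stood at 0.81 in small spheroids and 0.43 in capsules, and MTRF1, of the release factor family, at -1.47 and -1.44. Of 7 genes of mitochondrial transcription and tRNA maturation, 4 rose and none fell in capsules (median 0.54), against 2 up and 3 down in large spheroids and 3 up and 3 down in small spheroids. HSD17B10, a subunit of mitochondrial RNase P, and POLRMT, the mitochondrial RNA polymerase, rose most in capsules (0.89 and 0.88).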

How the data were processed

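RNA was measured by sequencing in 12 libraries. The deposited file holds read counts per gene, and per the submitters' processing notes and the file headers featureCounts (subread) counted reads on hg38 and limma was among the tools used, with versions, annotation, strand setting and row filter not given in the sources used here. Columns were matched to libraries by format and replicate number, and the column of capsule replicate 1 spells its format differently from the other capsule columns. Rows without a gene symbol (164, 0.0705% of counts) stayed in the library totals and the fit, and could not be members. The members and gene lists were chosen with earlier results of these data known.

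Genes were kept by edgeR's filterByExpr with a count minimum of 10 (15175 of 16020), scaled by TMM, and tested in 1 quasi-likelihood fit of all 12 libraries with 6 contrasts between formats and Benjamini-Hochberg adjustment over all genes. The replicate block, DESeq2, other scalings, no filter, a correction for GC content and length of the longest GENCODE 29 transcript (a spline with 5 degrees of freedom for each, per library) and leaving out each library were the alternatives, and leaving out the 4 libraries with cardiac reads was added after seeing the data. Any member could be named. Apart from genes not reported, values in every library are given at least for the 4 highest and 4 lowest called members against monolayer. The same holds for the 3 highest and 3 lowest in the other comparisons. The main fit was tested on simulated counts for small spheroids against monolayer, with the same setting of spread for all genes and no GC trend. It recovered 83 of 100 genes changed 1.5-fold and 100 of 100 changed 2-fold, with 8 false calls. The other steps were not tested in this way. Values of a few genes are not reported here, and counts and medians over groups include them. The depth of at least 13971346 counts per library left each member with 94 or more counts.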

Additional observations from a re-analysis of the deposited data

How the results depend on the processing

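Over 35 members and 6 comparisons, no called member changed direction with RLE scaling, library totals, no filter, DESeq2, the replicate block or any 1 library left out. With library totals, 4 members were called higher in small spheroids against monolayer, and for capsules against small spheroids 62.9% of all called genes were higher, against 51.9% with TMM. The replicate numbers did not pair the libraries across all formats: same-numbered libraries correlated at -0.215 to 0.217, and 13 of 36 checks matched a library best with its own number. Between large spheroids and monolayer, same-numbered libraries correlated at 0.0895 to 0.217, and each library matched best with its own number. The libraries with cardiac reads also bore the same replicate numbers in both of these formats. With the replicate block 7 member calls ended, and 23, 19 and 26 members were called in small spheroids, large spheroids and capsules against monolayer, in place of 24, 22 and 28.

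With the GC and length correction, and with it and the replicate block together, 3 members were called higher in small spheroids against monolayer, where 29.4% of all genes were with the correction alone. The cytosolic minus mitochondrial median was then -0.0098 and -0.0065 in small spheroids against monolayer, -0.53 and -0.53 in capsules against monolayer, and 0.37 and 0.37 in large against small spheroids. Log2 fold changes that changed sign in small spheroids against monolayer included those of AARS1 (-0.062, and -0.058 with the block), CARS2 (-0.33), MARS1 (-0.23), NARS2 (0.12), PARS2 (-0.31, and -0.32 with the block), SARS2 (-0.28), TARS2 (-0.21) and VARS2 (-0.28). In large against small spheroids they were AARS2 (0.26), CARS2 (0.0436, and 0.0440 with the block), VARS1 (0.38) and VARS2 (0.17). In capsules against small spheroids they were SARS2 (0.29), VARS1 (0.26), VARS2 (0.31, and 0.32 with the block) and WARS2 (-0.00061, and -0.00031 with the block), and in capsules against monolayer SARS1 (-0.24). The cause was not tested.

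Without the 4 libraries with cardiac reads, an alternative chosen after seeing the data that leaves 1 library each of monolayer and large spheroid, assumed to vary like the other formats, 7 members were called in large spheroids against monolayer, 5 of them higher, and the difference of medians was 0.24. Members called higher against monolayer numbered 4 in small spheroids and 6 in capsules. Leaving out 1 library at a time, members called higher in small spheroids against monolayer ranged from 4 to 8.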
